A study of Rattus norvegicus with 9 samples.

Results

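Aminoprocalcitonin (NPCT) is the amino-terminal fragment of procalcitonin (PCT), and both peptides were given to primary hippocampal neurons at the same dose for the same time. Here the transcriptomes of the neurons treated with NPCT were set directly against those of the neurons treated with PCT. The question was which genes tell the fragment from its parent peptide. The comparison used 6 of the 9 libraries of the study, 3 per peptide, and the vehicle libraries were not used here. The members are the genes whose level averaged 1 FPKM or more in these libraries, 14512 of 34092 genes, 780 of them without a symbol. FPKM divides the fragments of a gene by its length and by the fragments of the library, so it allows levels to be compared between genes as well as between libraries.

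The cells were hippocampal cells of wild-type rat fetuses of embryonic day 17, grown in neurobasal medium with B27, a combination that favours neurons. At 7 days in vitro they received 1 nM human NPCT or 1 nM human PCT for 24 h, so a human peptide acted on rat cells in both groups. Messenger RNA selected on poly-T beads was sequenced. The methods describe RNA of pooled biological triplicates and the labels number 3 replicates per group, so p-values measure the spread between these libraries, which may be technical in part. The peptides differ in that NPCT lacks the calcitonin part and the carboxy-terminal part of PCT.

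PCT is the precursor of calcitonin and is a product of the Calca gene. It is widely measured in serum because its level rises in bacterial infection. Calcitonin-family peptides act on a pair of related receptors, Calcr and Calcrl, whose ligand preference is set by the Ramp accessory proteins. Cultures of fetal hippocampus hold neurons together with astrocytes and a small number of microglia. Microglia are the resident phagocytes of the brain and make complement and lysozyme, whereas astrocytes clear glutamate and potassium and change their expression profile when cytokines reach them.

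The libraries held between 13573056 and 17211642 fragments on genes, and their totals overlapped between the peptides (two-sided exact permutation test, p = 0.3, where 3 against 3 cannot give less than 0.1). A pair of libraries stood apart from their group. PCT replicate 3 correlated with the other PCT libraries at 0.958 and 0.952 over the log2 levels of 10258 genes, and with the NPCT libraries at 0.950 to 0.961, so it was no closer to its own group than to the other. NPCT replicate 3 correlated with its group at 0.976 and 0.975 and had the highest levels of microglial genes. The counts of the main gene groups are therefore also given without one or both of these libraries. Markers of the label were present. Rbfox3, a nuclear marker of neurons, was at 31.0, 32.7 and 32.1 FPKM with NPCT and at 30.0, 26.8 and 31.7 FPKM with PCT. Gfap, a filament of astrocytes, lay at 770 to 937 FPKM with NPCT and 900 to 927 FPKM with PCT, so astrocyte RNA was abundant in every library. Cldn5 of endothelium and 5 of 12 red blood cell genes were listed at 0 in all 6 libraries, and no red blood cell gene reached the minimum level.

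The cultures treated with NPCT and with PCT, which hold neurons and glia, had different transcriptomes. Differentially expressed genes (DEGs) were those with an adjusted p of at most 0.05 in limma and a fold change above 1.5. There were 498 DEGs, or 3.43% of the genes tested. With NPCT 379 genes were higher (2.61%) and 119 were lower (0.82%) than with PCT. The median log2 difference was 1.11 among the DEGs that were higher and -0.81 among those that were lower, beside -0.02 over all genes. A difference of more than 2 on the log2 scale was found for 83 DEGs in the upward and 9 in the downward direction. The 3 libraries of one peptide did not overlap those of the other in all 498 DEGs, whereas 34.5% of the genes tested showed this separation. Protein-coding genes made up 341 of the higher and 90 of the lower DEGs, and miRNA genes 3 and 9.

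**Figure D1:**
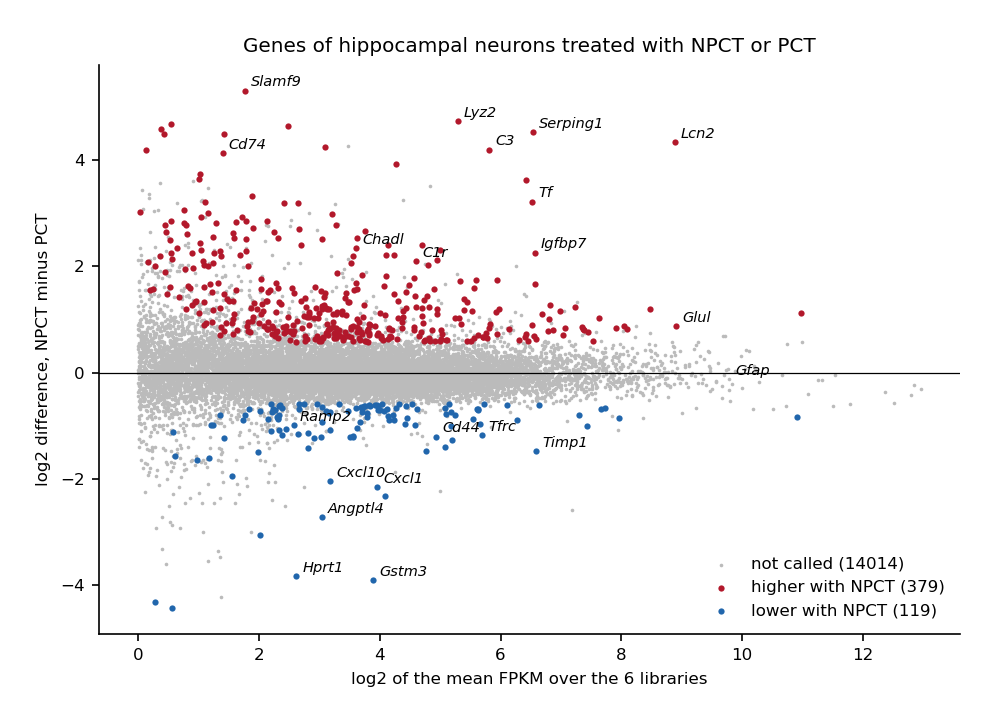
Each point is 1 of the 14512 genes tested, with the log2 of its mean FPKM over the 6 libraries on the x axis and the log2 difference between NPCT and PCT on the y axis. Red points are the 379 DEGs higher with NPCT and blue points the 119 lower with NPCT, and the genes with the largest differences, such as Slamf9 and Gstm3, lie on either side of a cloud centred on 0.

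The DEGs depended strongly on the libraries. Leaving out 1 library gave 98 (without NPCT replicate 2), 120 (without NPCT replicate 1), 127 (without PCT replicate 1), 173 (without PCT replicate 2) and 192 DEGs (without NPCT replicate 3), but 1353 without PCT replicate 3. Of the 498 DEGs, 485 were also called without PCT replicate 3. In all 6 of these fits 80 DEGs kept their call, 70 higher and 10 lower, which is 0.551% of the genes tested. Without NPCT replicate 3, 1.01% of the genes were higher and 0.317% lower, and without both replicate 3 libraries, a setting chosen after seeing the data, 5.48% and 2.75%. None of the DEGs that stayed in the test changed direction under any alternative. The 10 that were kept on the lower side included Gstm3, Angptl4, Cxcl1, Cxcl10, Timp1, Cd44, Tfrc and Irf1.

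**Figure D2:**
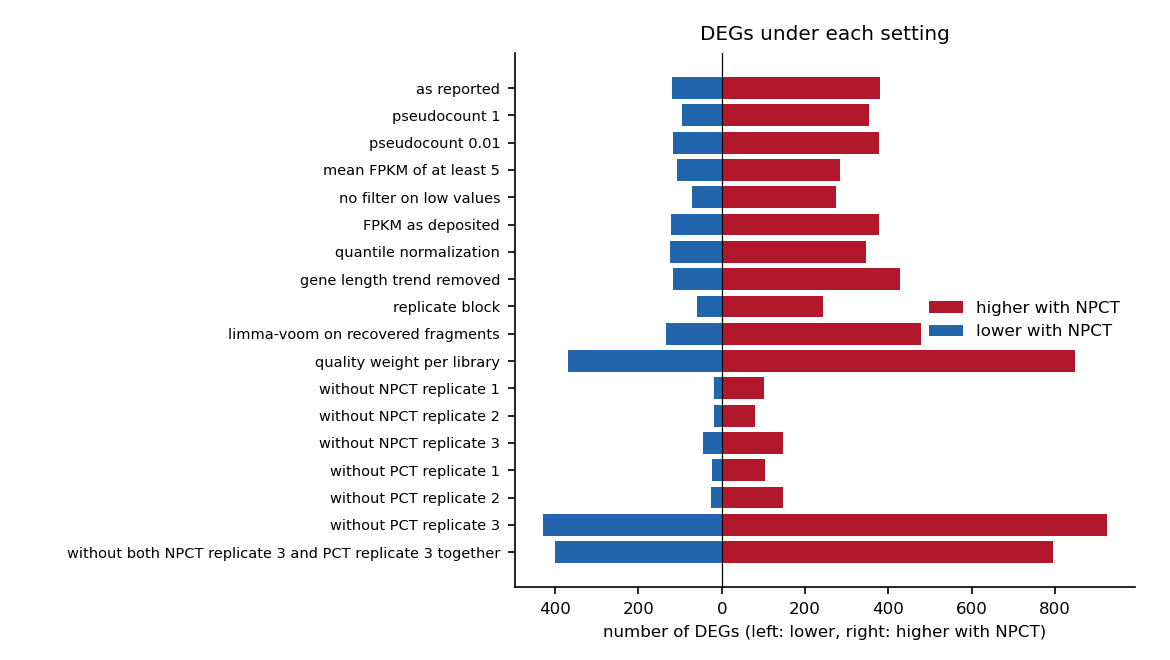
Bars give the number of DEGs higher (right, red) and lower (left, blue) with NPCT under the reported fit and under each alternative. The count falls to 98 to 192 when 1 library other than PCT replicate 3 is left out and rises to 1353 without PCT replicate 3.

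Slamf9 and Lyz2, which are genes of microglia and other phagocytes, had the largest rises among the named genes. Slamf9, a receptor of myeloid cells (ENSRNOG00000008045, chromosome 13, 90836361 to 90839411, Rnor_6.0), was covered by 145, 106 and 161 fragments with NPCT and by 2, 3 and 0 fragments with PCT. The ratio of the summed fragments, scaled by library, was 87.7 (95% exact interval 37.3 to 272, counting error only, limma adjusted p = 0.00486). Lyz2, the lysozyme of phagocytes (ENSRNOG00000005825, chromosome 7, 60335969 to 60341264), was at 34.1, 34.5 and 160 FPKM with NPCT and at 1.93, 3.0 and 1.52 FPKM with PCT. All NPCT libraries were above all PCT libraries, and NPCT replicate 3 stood far above the others. The log2 difference was 4.73 (SE 0.59, adjusted p = 0.0119) and fell to 3.99 without NPCT replicate 3. Cd74, the invariant chain that escorts class II MHC molecules (ENSRNOG00000018735), was at 4.71, 4.84 and 5.58 FPKM with NPCT and at 0.291, 0.252 and 0.0812 FPKM with PCT, a log2 difference of 4.13 (SE 0.38, adjusted p = 0.00562) that rested on at most 6 fragments per PCT library. Ncf1, a subunit of the phagocyte NADPH oxidase (ENSRNOG00000001480), was at 4.45, 4.34 and 11.6 FPKM against 0.469, 0.632 and 0.471 FPKM (log2 difference 3.32, SE 0.40, adjusted p = 0.0113).

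Of 34 microglia markers with a row in the table, 26 were tested. With NPCT 16 of the 26 were higher and 0 were lower, beside 2.61% and 0.82% of all genes tested. Their median log2 difference was 2.52. Most of the called markers averaged below 1 FPKM with PCT, among them Slamf9, Hpgds, Cx3cr1, Csf1r, Aif1 and Spi1. They met the minimum level only through their NPCT libraries. Most of the calls counted, and part of the list behind the median, are thus genes admitted because they were high there. The same holds for other genes called higher in the groups described below, among them C2, C3ar1, Cd74, RT1-A1, Steap4, Tnfrsf1b, Il18 and Col9a3. Adgre1, a surface receptor of macrophages, showed the steadiest rise of the classical markers, from 3.24, 4.29 and 3.04 FPKM with PCT to 18.0, 19.3 and 33.4 FPKM with NPCT (log2 difference 2.66, SE 0.25, adjusted p = 0.00562). Cx3cr1, the receptor for the neuronal chemokine fractalkine, was at 3.11, 2.72 and 6.39 FPKM with NPCT and at 0.509, 0.370 and 0.298 FPKM with PCT (log2 difference 3.0, SE 0.40, adjusted p = 0.0141). Csf1r, the receptor that microglia need to survive, was at 3.18, 3.38 and 13.6 FPKM against 0.525, 0.756 and 0.936 FPKM (log2 difference 2.71, SE 0.56, adjusted p = 0.0408). Aif1, which encodes a calcium-binding protein used to stain microglia, was at 4.63, 4.44 and 14.7 FPKM against 1.13, 0.623 and 0.848 FPKM (log2 difference 2.85, SE 0.47, adjusted p = 0.0240). In each of these genes the NPCT libraries lay above the PCT libraries, as in all higher DEGs, and NPCT replicate 3 was the highest. Tyrobp and Fcer1g, adaptors of activating receptors, Laptm5, and the transcription factor Spi1 were called as well. Lst1, a transcript of myeloid cells, was listed at 0 in every PCT library and was at least 7.50-fold higher with NPCT, set against a floor of 3 fragments per PCT library. C1qa was not called, with 9.65, 8.74 and 38.1 FPKM against 2.19, 3.41 and 4.74 FPKM (log2 difference 2.13, SE 0.57, adjusted p = 0.0682).

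The summed level of the microglia markers was 179 to 565 FPKM with NPCT and 68.9 to 77.0 FPKM with PCT. Without NPCT replicate 3 the number called was 10 and the median log2 difference 2.04, beside 1.01% of all genes called higher in that fit. Without PCT replicate 3 the number was 17, beside 6.37%. Between 3 and 6 were called when one of the other libraries was left out, beside 80 to 147 of all 14512 genes called higher. Slamf9 and Adgre1 alone kept their call in all 6 fits. With a mean FPKM of at least 5 required, which few of the markers reach, 4 were called, beside 283 of 10258 genes called higher. P2ry12 and Tmem119, the most selective markers of microglia, stayed below the minimum level, with 0.454, 0.332 and 2.27 FPKM and with 1.05, 0.737 and 1.85 FPKM with NPCT, and at most 0.503 and 0.323 FPKM with PCT. In bulk RNA fewer microglia and less RNA per microglial cell cannot be told apart. Several groups described next hold genes that microglia also express, and the part of the microglial difference in them was not tested.

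Complement components formed a group in which 8 of 16 tested members were higher with NPCT and 0 were lower, beside 2.61% and 0.82% of all genes tested, with a median log2 difference of 1.78. C3, the central component (ENSRNOG00000046834, chromosome 9, 9721105 to 9747167), was at 63.5, 78.1 and 178 FPKM with NPCT and at 3.86, 6.71 and 5.23 FPKM with PCT (log2 difference 4.20, SE 0.38, adjusted p = 0.00562). C1r, a protease of the first component (ENSRNOG00000011796), was at 34.6, 38.2 and 45.1 FPKM against 7.68, 9.99 and 9.71 FPKM (log2 difference 2.10, SE 0.14, adjusted p = 0.00221). Serping1, which inhibits C1r and C1s (ENSRNOG00000007457, chromosome 3, 72161189 to 72171078), was at 126, 169 and 237 FPKM against 5.32, 10.4 and 7.12 FPKM (log2 difference 4.53, SE 0.29, adjusted p = 0.00221). The protease C1r and its inhibitor Serping1 were thus higher together. The groups did not overlap in C3, C1r or Serping1, as in all DEGs. C1s, C2, the regulator Clu, properdin (Cfp) and the receptor C3ar1 were also called, with log2 differences of 2.22, 2.81, 1.21, 1.11 and 2.30. C2 overlaps Cfb, and reads on their shared stretch cannot be assigned to a gene without strand information. The membrane regulators Cd46 and Cd59 had log2 differences of -0.46 and -0.10 (adjusted p = 0.381 and 0.502). Between 3 and 9 members were called when 1 library was left out, 3 without NPCT replicate 2, where 80 of 14512 genes were higher, and 7 without NPCT replicate 3, where the median was 1.04 and 1.01% of all genes were higher. The 9 were called without PCT replicate 3, beside 6.37% of all genes. C3, C1r and Serping1 kept their call in all 6 fits.

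In the list of MHC and antigen presentation genes 4 of 16 were higher, namely Cd74, RT1-A1, RT1-A2 and B2m, and 0 were lower, beside 2.61% and 0.82% of all genes (median log2 difference 0.51). B2m, the light chain of class I molecules, was at 286, 293 and 353 FPKM with NPCT and at 180, 185 and 154 FPKM with PCT (log2 difference 0.84, SE 0.11, adjusted p = 0.0150). RT1-A1 and RT1-A2 are near-identical neighbours that overlap each other, so their separate values (log2 differences 2.77 and 1.76) are uncertain. The peptide transporter Tap1 and the proteasome subunit Psme2 had log2 differences of -0.16 and -0.31 (adjusted p = 0.592 and 0.0768). Between 1 and 5 members were called when 1 library was left out, 1 without NPCT replicate 2 (80 of 14512 genes higher), 2 without NPCT replicate 3 (1.01% of all genes) and 5 without PCT replicate 3 (6.37%), and of the 4 calls that of Cd74 was made in all 6 fits.

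Genes that mark reactive astrocytes and the acute phase response were split. Of 28 tested, 6 were higher and 6 were lower with NPCT, beside 2.61% and 0.82% of all genes, and the median log2 difference was -0.03. On the higher side were Lcn2, Serping1, C3, ceruloplasmin (Cp), Steap4 and Hspb1. Lcn2, a secreted lipocalin that binds iron-carrying siderophores (ENSRNOG00000013973, chromosome 3, 11414186 to 11417546), was the most abundant of the large rises. It was at 749, 909 and 1031 FPKM with NPCT and at 27.6, 74.6 and 40.6 FPKM with PCT. Every NPCT library was above every PCT library by a wide margin, and the log2 difference was 4.34 (SE 0.33, adjusted p = 0.00419). On the lower side were Cxcl10, Timp1, Cd44, Osmr, Emp1 and Ptx3. Timp1, an inhibitor of matrix metalloproteinases (ENSRNOG00000010208, X chromosome, 1364786 to 1369384), was at 50.3, 50.5 and 51.0 FPKM with NPCT and at 122, 152 and 149 FPKM with PCT (log2 difference -1.47, SE 0.10, adjusted p = 0.00221). Timp1 lies within the span of Syn1 in the table, and fragments of these genes cannot be separated by strand. Cd44, the hyaluronan receptor, was at 16.3, 17.4 and 21.5 FPKM with NPCT and at 39.0, 48.8 and 39.5 FPKM with PCT (log2 difference -1.20, SE 0.13, adjusted p = 0.00855).

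Osmr, the receptor of oncostatin M, was at 6.25, 6.64 and 8.63 FPKM against 16.4, 18.7 and 14.2 FPKM (log2 difference -1.19, SE 0.15, adjusted p = 0.0133). Ptx3, a secreted pentraxin whose gene overlaps Veph1, was at 11.5, 11.9 and 12.2 FPKM against 15.6, 22.1 and 20.8 FPKM (log2 difference -0.70, SE 0.13, adjusted p = 0.0344). The genes that were higher and those that were lower thus came from the same list. Their libraries did not overlap, as in all 498 DEGs and in 34.5% of the genes tested. Gfap did not pass the test, with a log2 difference of -0.13 and a 95% interval of -0.35 to 0.10, and Vim had 0.06 (adjusted p = 0.847). Lcn2, Serping1, C3, Cxcl10, Timp1 and Cd44 were called in all 6 fits that left out 1 library, whereas the counts on the higher and lower sides ranged from 3 to 7 and from 3 to 6, with 7 and 6 without PCT replicate 3, beside 6.37% and 2.96% of all genes, and 3 and 4 without NPCT replicate 3, beside 1.01% and 0.317%.

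**Figure D3:**
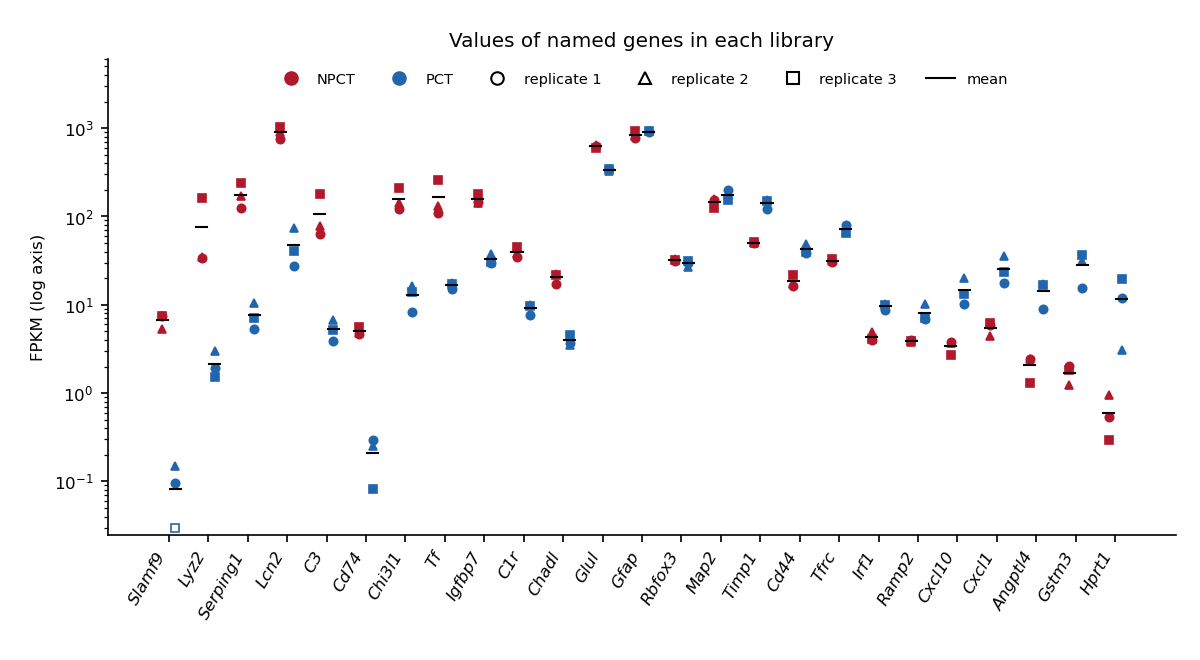
FPKM of named genes on a log axis in each library, with NPCT in red and PCT in blue, symbols for the replicate numbers and black lines for the group means. Slamf9 in PCT replicate 3 is at 0 and drawn as an open symbol at the foot of the axis, the genes on the left have all NPCT libraries above the PCT libraries, those on the right have them below, and Gfap, Rbfox3 and Map2 in the middle lie close together.

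Lcn2 was higher and the chemokines Cxcl1 and Cxcl10 were lower with NPCT. Their promoters, chosen after the values were seen, are shown because all 3 genes are known targets of NF-kB. The windows run from 250 bases before to 50 bases after the start of the gene and come from RefSeq on the assembly GRCr8, which is not the build of the deposited table. Capitals mark matches on either strand to the kappaB consensus, to the AP-1 motif TGANTCA or to the interferon-stimulated response element. The windows are chr3:36081731-36082030 on the minus strand for Lcn2, chr14:17479272-17479571 on the minus strand for Cxcl1 and chr14:15988816-15989115 on the plus strand for Cxcl10.
Lcn2: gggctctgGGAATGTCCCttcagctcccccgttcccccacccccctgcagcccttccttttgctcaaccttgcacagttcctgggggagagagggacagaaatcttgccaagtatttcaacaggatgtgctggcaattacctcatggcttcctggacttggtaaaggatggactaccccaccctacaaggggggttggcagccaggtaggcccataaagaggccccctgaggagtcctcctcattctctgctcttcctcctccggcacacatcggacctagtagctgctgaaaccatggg
Cxcl1: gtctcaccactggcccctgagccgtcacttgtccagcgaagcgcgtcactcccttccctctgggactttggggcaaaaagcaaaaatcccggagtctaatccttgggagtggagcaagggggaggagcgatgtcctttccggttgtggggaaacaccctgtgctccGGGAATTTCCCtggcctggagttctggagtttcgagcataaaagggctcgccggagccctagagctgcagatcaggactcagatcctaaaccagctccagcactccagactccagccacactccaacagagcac
Cxcl10: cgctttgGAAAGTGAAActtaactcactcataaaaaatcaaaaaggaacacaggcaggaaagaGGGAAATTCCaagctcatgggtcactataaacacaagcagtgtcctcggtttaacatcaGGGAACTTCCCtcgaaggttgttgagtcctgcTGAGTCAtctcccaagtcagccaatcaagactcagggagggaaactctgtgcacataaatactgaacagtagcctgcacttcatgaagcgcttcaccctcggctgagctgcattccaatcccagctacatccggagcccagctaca
The Lcn2 window has 1 kappaB match at -242 to -233, counted from the start of the gene. The Cxcl1 window has a pair of overlapping matches from -84 to -74, and the Cxcl10 window has matches at -187 to -178 and from -128 to -118 (an overlapping pair), an AP-1 match at -96 to -90 and an interferon response match at -243 to -234. A kappaB match was found in 7.51% of all 33469 promoters of the table, in 9.96% of the 9554 promoters matched to genes tested, in 13.4% of the 231 matched to DEGs higher with NPCT and in 14.8% of the 61 matched to DEGs lower with NPCT. For AP-1 these shares were 7.33%, 4.36%, 6.49% and 8.20%, for the interferon response motif 3.92%, 2.70%, 4.76% and 6.56%, and for the STAT motif TTCNNNGAA 8.87%, 6.46%, 8.23% and 8.20%. The sites are matches of letters, and no binding was measured.

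Of 14 chemokines tested, Cxcl1 and Cxcl10 were lower with NPCT and 0 were higher, beside 0.82% and 2.61% of all genes. Limma-voom also called 2 lower and 0 higher, beside 133 and 478 of all 14512 genes. An unadjusted p under 0.05 was found for 3 in each direction, beside 4138 of all genes. Cxcl1, which attracts neutrophils (ENSRNOG00000002802, chromosome 14, 18743685 to 18745457), was at 5.92, 4.42 and 6.15 FPKM with NPCT and at 17.8, 35.3 and 23.7 FPKM with PCT (log2 difference -2.16, SE 0.25, adjusted p = 0.0102). Cxcl10, an interferon-inducible attractant of T cells (ENSRNOG00000022256, chromosome 14, 17210733 to 17212930), was at 3.77, 3.73 and 2.68 FPKM against 10.3, 20.2 and 13.4 FPKM (log2 difference -2.04, SE 0.25, adjusted p = 0.0119). The NPCT libraries were the low ones in both genes, as in all lower DEGs, and both calls were made in all 6 fits that left out 1 library. Cxcl10 lies within the span of Art3 in the table. Over the list 10 of 14 had values above 0 and the median log2 difference was 0.27, and 1 was called higher without NPCT replicate 3, beside 1.01% of all genes. Ccl6 and Cxcl9 had log2 differences of 2.55 and 2.16 (adjusted p = 0.0839 and 0.0768). Ccl2 had a log2 difference of -1.13 (adjusted p = 0.0811) and Cxcl14, the most abundant chemokine, of 0.33 (adjusted p = 0.163).

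Among 39 cytokines and their receptors 5 were higher (Tnfrsf1b, Tgfb1, Il18, Csf2ra and Il11ra1) and 2 were lower (Osmr and Il1rap) with NPCT, beside 2.61% and 0.82% of all genes, and 0 of the 7 calls was made in all 6 fits. Il1rap, the accessory chain of the interleukin-1 receptor, was at 2.94, 2.72 and 3.90 FPKM with NPCT and at 6.54, 7.51 and 7.64 FPKM with PCT (log2 difference -1.17, SE 0.16, adjusted p = 0.0166). The main receptor of tumour necrosis factor, Tnfrsf1a, was at 41.0 to 51.0 FPKM with NPCT and 48.0 to 60.2 FPKM with PCT, which overlap. The 5 that were higher were not called without NPCT replicate 1, NPCT replicate 2, PCT replicate 1 or PCT replicate 2, where 0 cytokine genes and 80 to 147 of all 14512 genes were higher. Without PCT replicate 3, 8 were higher, beside 6.37% of all genes.

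Of 37 interferon-stimulated genes 2 were higher and 3 were lower with NPCT, beside 2.61% and 0.82% of all genes (median log2 difference -0.09). Without NPCT replicate 3, 1 in each direction was called, beside 1.01% higher and 0.317% lower of all genes. Irf1, a transcription factor induced by interferon gamma, was at 4.0, 4.92 and 4.14 FPKM with NPCT and at 8.74, 10.2 and 9.96 FPKM with PCT (log2 difference -1.13, SE 0.12, adjusted p = 0.00767). Bst2, which tethers virions to the cell, was at 8.59, 8.54 and 15.9 FPKM against 1.37, 2.68 and 1.89 FPKM (log2 difference 2.40, SE 0.31, adjusted p = 0.0139). Irf1 and Bst2 were called in all 6 fits and lay in opposite directions. Ifi27 was higher (log2 difference 1.75, adjusted p = 0.0192), and Gbp5 and Rsad2 were lower (log2 differences -1.21 and -1.95, adjusted p = 0.0286 and 0.0437).

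None of the 24 feedback and target genes of NF-kB was called by limma, although 18 had values below 0 and the median log2 difference was -0.27. An unadjusted p under 0.05 was found for 9 with lower and 1 with higher levels, beside 4138 of all 14512 genes. Limma-voom called 3 lower and 0 higher, beside 133 and 478 of all genes. Without PCT replicate 3, 2 were lower, beside 2.96% of all genes. The inhibitor Nfkbia and the adhesion molecule Icam1 came closest, with log2 differences of -0.74 and -0.78 (adjusted p = 0.0501 and 0.0502).

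**Figure D4:**
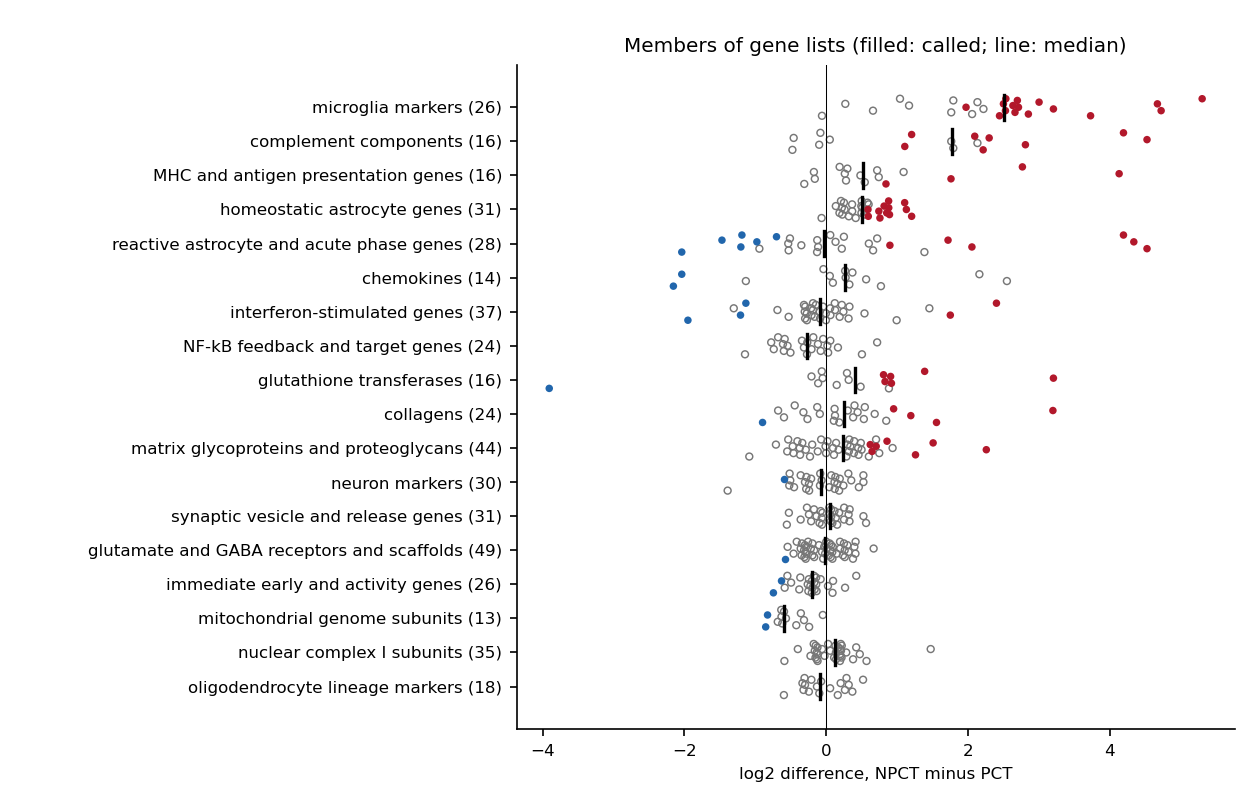
Points give the log2 difference between NPCT and PCT of every tested member of gene lists, with the number of members in brackets, filled points for DEGs and black lines for the median. Most microglia and complement genes lie to the right of 0, reactive astrocyte genes on both sides, and neuron and synapse genes around 0.

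Some genes of resting, homeostatic astrocytes were higher with NPCT, while the greater part of the list did not pass the test. Of 31 tested, 30 had values above 0, beside 48.0% of all genes. Of these 12 were called higher and 0 lower, beside 2.61% and 0.82% of all genes, with a median log2 difference of 0.51 over the list. Glul, glutamine synthetase (ENSRNOG00000049560, chromosome 13, 71331052 to 71340229), was at 623, 648 and 601 FPKM with NPCT and at 343, 327 and 345 FPKM with PCT (log2 difference 0.88, SE 0.07, adjusted p = 0.00419). Plpp3, a lipid phosphatase of astrocytes, was at 113, 123 and 124 FPKM against 66.8, 64.7 and 61.9 FPKM (log2 difference 0.89, SE 0.07, adjusted p = 0.00419). Kcnj10, an inward-rectifying potassium channel, was at 40.5, 40.3 and 45.6 FPKM against 21.7, 16.2 and 21.0 FPKM (log2 difference 1.11, SE 0.13, adjusted p = 0.00924). Aldh1l1, an astrocyte enzyme of folate metabolism, was at 13.8, 14.5 and 12 FPKM against 6.22, 6.36 and 5.62 FPKM (log2 difference 1.13, SE 0.11, adjusted p = 0.00562). NPCT replicate 3 was the highest library in Plpp3 and Kcnj10 but not in Glul or Aldh1l1. In each of these genes the PCT libraries, replicate 3 included, stayed below the NPCT libraries, as in all higher DEGs.

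Aldoc, S100b, Mlc1, Hepacam, Ndrg2, Acsbg1 and Clu were also called, with log2 differences from 0.59 to 1.21. The glutamate transporters Slc1a2 and Slc1a3 had log2 differences of 0.50 and 0.14 (adjusted p = 0.117 and 0.290), Aqp4 of 0.42 (adjusted p = 0.0529) and Apoe of 0.58 (adjusted p = 0.0950). The summed level of the list was 8839 to 9699 FPKM with NPCT and 5771 to 6417 FPKM with PCT. The number called was 12 without NPCT replicate 3 (1.01% of all genes) and 13 without PCT replicate 3 (6.37%), and it was 6 without NPCT replicate 2, where 80 of 14512 genes were higher. Glul, Plpp3, Kcnj10, Aldh1l1 and Aldoc were among those that kept their call in all 6 fits. Gfap and Vim, described above, did not pass the test in the same libraries.

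**Figure D5:**
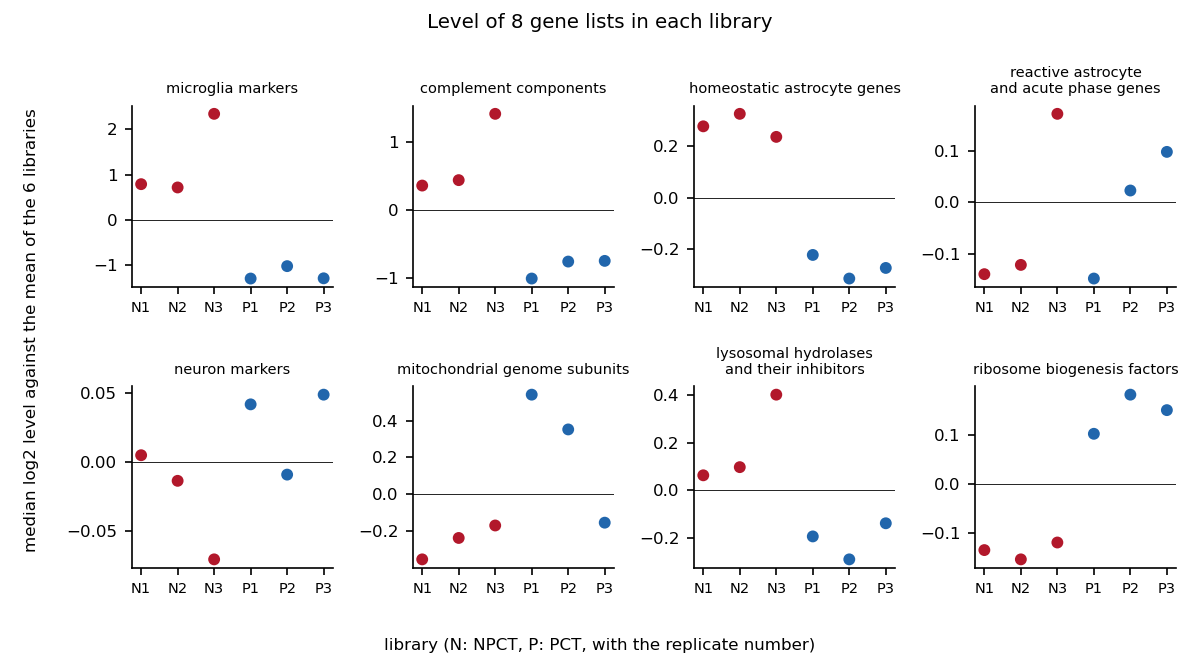
For 8 gene lists, points give the level in each library as the median over the list of the log2 value relative to the mean of the 6 libraries (NPCT red, PCT blue, 3 each). NPCT replicate 3 stands at 2.34 for microglia markers beside 0.79 and 0.71 in the other NPCT libraries, and PCT replicate 3 at -0.15 for mitochondrial genome subunits beside 0.54 and 0.35 in the other PCT libraries.

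Genes of the extracellular matrix were mostly higher where they were called. Of 44 matrix glycoproteins and proteoglycans 7 were higher and 0 were lower, and of 24 collagens 4 were higher and 1 was lower, beside 2.61% and 0.82% of all genes. Without PCT replicate 3, 7 collagens were higher, and 8 glycoproteins were higher and 2 lower, beside 6.37% and 2.96% of all genes. Without NPCT replicate 3, 3 glycoproteins were higher, beside 1.01% of all genes. Igfbp7, a secreted binding protein of insulin-like growth factors that overlaps Polr2b in the table (ENSRNOG00000002050, chromosome 14, 33010300 to 33070190), was at 148, 143 and 180 FPKM with NPCT and at 29.8, 37.8 and 30.4 FPKM with PCT, a log2 difference of 2.26 (SE 0.13, adjusted p = 0.00221). Col9a3, a chain of collagen IX (ENSRNOG00000009531), was at 7.96, 7.82 and 13 FPKM against 0.662, 0.790 and 1.50 FPKM (log2 difference 3.20, SE 0.33, adjusted p = 0.00694). Col4a1, the main chain of basement membranes, was at 26.8, 26.9 and 27.4 FPKM against 12.9, 13 and 16.1 FPKM (log2 difference 0.95, SE 0.10, adjusted p = 0.00779). The NPCT values of Col4a1 lay within 1 FPKM of each other, all above the PCT values.

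Chadl, a chondroadherin-like proteoglycan (ENSRNOG00000024631), was at 17.3, 22.3 and 21.5 FPKM against 3.72, 3.54 and 4.61 FPKM (log2 difference 2.34, SE 0.14, adjusted p = 0.00221). Cpxm1, a member of the carboxypeptidase family (ENSRNOG00000021220), was at 27.4, 28.5 and 28.8 FPKM against 10.2, 11 and 12.1 FPKM (log2 difference 1.34, SE 0.09, adjusted p = 0.00221). Mmp2, a gelatinase, was at 17.6, 20.1 and 23.6 FPKM against 4.90, 5.73 and 6.24 FPKM (log2 difference 1.84, SE 0.14, adjusted p = 0.00419), which is the opposite direction to its inhibitor Timp1. Another inhibitor, Timp2, was at 417, 423 and 424 FPKM against 348, 298 and 338 FPKM (log2 difference 0.36, adjusted p = 0.0496), below the fold change required. Loxl1, Mgp, Emilin1, Lamb2, Fmod and Ltbp3 were called higher as well, and Col3a1, a collagen of fibroblasts, was lower at 2.48, 2.17 and 2.16 FPKM against 3.24, 4.90 and 5.02 FPKM (log2 difference -0.90, SE 0.20, adjusted p = 0.0488). Col1a1 had a log2 difference of -0.59 (adjusted p = 0.145). Of 9 fibroblast markers tested 1 was higher and 1 lower, beside 2.61% and 0.82% of all genes. Igfbp7, Col9a3, Col4a1, Chadl, Cpxm1, Mmp2, Timp1 and Loxl1 kept their call in all 6 fits. The other calls of the matrix lists did not. When a library other than PCT replicate 3 was left out, 2 or 3 glycoproteins were called, beside 80 to 147 of all 14512 genes called higher.

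Glutathione transferases, which couple glutathione to electrophiles, included the largest fall of all named genes. Of 16 tested, 6 were higher and 1 was lower with NPCT, beside 2.61% and 0.82% of all genes. Gstm3 (ENSRNOG00000049743, chromosome 2, 210685197 to 210688272) was at 2.01, 1.23 and 1.82 FPKM with NPCT and at 15.5, 31.5 and 36.8 FPKM with PCT, a log2 difference of -3.91 (SE 0.33, adjusted p = 0.00515). Gstm1 was at 198, 206 and 233 FPKM against 118, 129 and 116 FPKM (log2 difference 0.81, SE 0.09, adjusted p = 0.00767). Gsta4, which acts on products of lipid peroxidation, was at 57.4, 52.6 and 73.7 FPKM against 21.9, 23.5 and 23.8 FPKM (log2 difference 1.39, SE 0.13, adjusted p = 0.00562). The libraries of the peptides did not overlap in any of the 3 genes, as in all DEGs.

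Gstm2 and Gstt3 were higher by 0.83 and 0.92 (adjusted p = 0.00719 and 0.00562), Mgst1 by 0.91 (adjusted p = 0.0245), and Hpgds, a prostaglandin D synthase that is also a microglia marker, by 3.21 (adjusted p = 0.0207). The mu class genes Gstm1, Gstm2 and Gstm3 are close copies on chromosome 2, and Gstm2 overlaps annotated neighbours, so fragments may be split between them. Gstp1, the most abundant member, was at 305, 332 and 391 FPKM against 334, 365 and 410 FPKM (log2 difference -0.11, 95% interval -0.39 to 0.17). Gstm1, Gstm2, Gstm3, Gsta4 and Gstt3 kept their call in all 6 fits. Of 23 targets of the antioxidant factor Nrf2, 5 higher and 3 lower had an unadjusted p under 0.05, beside 4138 of all 14512 genes. The median log2 difference of the list was 0.06. The cystine transporter Slc7a11 alone was called, beside 2.61% of all genes called higher. It was at 67.3, 84.7 and 70.6 FPKM against 42.9, 39.3 and 35.0 FPKM (log2 difference 0.92, SE 0.12, adjusted p = 0.0119).

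Few neuronal genes were called, where over all genes 2.61% were higher and 0.82% lower. Of 30 neuron markers 0 were higher and 1 was lower (median log2 difference -0.07), of 31 synaptic vesicle and release genes 0 were called, of 49 glutamate and GABA receptors and scaffolds 1 was lower and of 46 voltage-gated channels 0 were called. Over all 14512 genes, 4138 had an unadjusted p under 0.05. Among the neuron markers this was found for 11 with lower and 5 with higher levels. Without PCT replicate 3, 4 neuron markers were lower and 1 was higher, beside 2.96% and 6.37% of all genes. In that fit 2 synaptic genes were lower and 0 higher, and 1 channel was lower and 2 were higher. Of the receptors and scaffolds 1 was lower and 0 were higher in it. Eno2, neuronal enolase, had the lowest value, with a log2 difference of -1.39 (adjusted p = 0.165), and was at 1.49, 1.58 and 1.41 FPKM with NPCT and at 1.42, 6.10 and 7.66 FPKM with PCT. Beside the same 4138 genes, an unadjusted p under 0.05 was found for 5 synaptic genes in each direction. It was found for 9 channels with higher and 5 with lower levels. Limma-voom called 0 synaptic genes and 0 channels, beside 478 higher and 133 lower of all genes. Elavl4, an RNA-binding protein of neurons, was at 18.9, 18.8 and 17.5 FPKM with NPCT and at 28.9, 29.9 and 24.8 FPKM with PCT (log2 difference -0.59, SE 0.09, adjusted p = 0.0212). Grin3a, a subunit of the NMDA receptor, was at 5.49, 5.09 and 4.54 FPKM against 8.37, 7.60 and 6.88 FPKM (log2 difference -0.59, SE 0.12, adjusted p = 0.0425), and it overlaps Ppp3r2. Both calls were made in 1 of the 6 fits that left out a library. Map2 was at 153, 158 and 125 FPKM against 199, 175 and 154 FPKM, so the groups overlapped (log2 difference -0.28, 95% interval -0.58 to 0.02), and Rbfox3 had an interval of -0.08 to 0.31.

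Of 26 activity-dependent genes 2 were lower and 0 higher, beside 0.82% and 2.61% of all genes. Fos was at 8.92, 10.4 and 12 FPKM with NPCT and at 14.3, 17.4 and 16.9 FPKM with PCT (log2 difference -0.63, SE 0.13, adjusted p = 0.0443), and Fosl1 was also lower (log2 difference -0.74, adjusted p = 0.0452). Fos was called in 1 and Fosl1 in 2 of the 6 fits. Bdnf, Egr1 and Arc had log2 differences of -0.55, -0.38 and -0.14 (adjusted p = 0.0856, 0.0851 and 0.775). Of 21 neuropeptide genes 1 was higher and 1 lower, against the same shares of all genes. Penk, the precursor of enkephalins, was higher at 14.9, 14.0 and 18.5 FPKM against 4.36, 7.49 and 7.30 FPKM (log2 difference 1.33, SE 0.22, adjusted p = 0.0243). Nts, the precursor of neurotensin, was lower at 13.8, 13.2 and 11 FPKM against 21.8, 19.9 and 20.9 FPKM (log2 difference -0.72, SE 0.10, adjusted p = 0.0185). These peptides moved in opposite directions, and each was called in 2 of the 6 fits.

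The study also assayed mitochondrial respiration, and genes of oxidative phosphorylation were compared for this reason. All 13 protein genes of the mitochondrial genome had lower values with NPCT, and 2 of them, ND4 and the overlapping ND4L, were called lower, beside 0.82% of all genes (median log2 difference -0.59). ND4, a subunit of complex I, was at 213, 164 and 158 FPKM with NPCT and at 325, 315 and 319 FPKM with PCT (log2 difference -0.85, SE 0.12, adjusted p = 0.0168). COX1, the most abundant, was at 6401, 7076 and 7821 FPKM with NPCT and at 10567, 9202 and 6977 FPKM with PCT, and PCT replicate 3 lay among the NPCT libraries (log2 difference -0.31, 95% interval -0.73 to 0.10). Genes of the mitochondrial genome took 3.70% to 4.17% of the fragments with NPCT and 6.21%, 5.46% and 4.11% with PCT (exact two-sided permutation test, p = 0.2). Without PCT replicate 3, 8 of the 13 were lower (median log2 difference -0.81), beside 2.96% of all genes called lower in that fit, and without NPCT replicate 2, NPCT replicate 3, PCT replicate 1 or PCT replicate 2 there were 0. Quantile normalization moved the median to -0.20.

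Nuclear genes of the respiratory chain did not share this direction. Of 35 nuclear subunits of complex I 0 were called, beside 2.61% higher and 0.82% lower of all genes (median log2 difference 0.13). An unadjusted p under 0.05 was found for 3 higher and 2 lower, beside 4138 of all 14512 genes. Limma-voom called 0, beside 478 higher and 133 lower of all genes. Without PCT replicate 3 there were 5 higher, beside 6.37% of all genes. Of 43 nuclear subunits of complexes II to V, 6 higher and 8 lower had an unadjusted p under 0.05, beside the same 4138 genes. Without PCT replicate 3, 5 were called higher and 1 lower, beside 6.37% and 2.96% of all genes. With all libraries 1 was higher, beside 2.61% of all genes. This was Atp5me, a small subunit of ATP synthase, at 161, 149 and 165 FPKM with NPCT and at 65.4, 44.6 and 94.0 FPKM with PCT (log2 difference 1.28, SE 0.24, adjusted p = 0.0332), a call made in 2 of the 6 fits. Atp5f1b, the catalytic subunit, was at 541 to 608 FPKM against 558 to 599 FPKM (95% interval of the log2 difference -0.20 to 0.17). Of 22 glycolysis enzymes Aldoc, an isoform of astrocytes, alone was called higher and 0 were called lower, beside 2.61% and 0.82% of all genes. Of 18 TCA cycle enzymes 0 were called, and 2 in each direction had an unadjusted p under 0.05, beside the same 4138 genes. Limma-voom called 0 of them, beside the same 478 and 133 genes. Of 74 cytosolic ribosomal proteins 2 were lower and 0 were higher, beside 0.82% and 2.61% of all genes, with a median of -0.03. An unadjusted p under 0.05 was found for 17 lower and 6 higher, beside 4138 of all 14512 genes. Without PCT replicate 3 the balance turned, with 8 higher and 3 lower, beside 6.37% and 2.96% of all genes.

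The receptor system of the calcitonin peptides was sparsely expressed. Calcr, the calcitonin receptor, was covered by 2 to 7 fragments per library with NPCT and by 4, 20 and 3 with PCT and was below the minimum level, as were Ramp1 and Ramp3. Calcrl, the calcitonin receptor-like receptor (ENSRNOG00000054695), was at 4.15, 4.52 and 3.69 FPKM with NPCT and at 5.27, 4.63 and 4.60 FPKM with PCT (log2 difference -0.23, 95% interval -0.53 to 0.08). Ramp2, which with Calcrl forms the adrenomedullin receptor (ENSRNOG00000020415, chromosome 10, 89166890 to 89168965), was at 3.98, 3.80 and 3.93 FPKM against 6.83, 10.1 and 7.06 FPKM. Its NPCT values were tight and below all PCT values, with a log2 difference of -0.99 (SE 0.16, adjusted p = 0.0234), and it was called in 2 of the 6 fits. An antisense gene and a protein-coding gene overlap Ramp2 in the table. The rat Calca gene itself, which encodes the endogenous PCT, was at 1.64, 1.33 and 1.09 FPKM against 0.930, 0.912 and 0.865 FPKM (log2 difference 0.52, 95% interval -0.20 to 1.23).

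Several large differences lay outside these groups. Tf, transferrin (ENSRNOG00000030625), was at 109, 132 and 257 FPKM with NPCT and at 15.0, 17.7 and 17.2 FPKM with PCT (log2 difference 3.22, SE 0.29, adjusted p = 0.00562). Chi3l1, a chitinase-like glycoprotein secreted by astrocytes and macrophages (ENSRNOG00000053272), was at 121, 141 and 211 FPKM against 8.27, 16.4 and 14.1 FPKM (log2 difference 3.62, SE 0.29, adjusted p = 0.00419). Smpdl3a, a phosphodiesterase (ENSRNOG00000000815), was at 26.0, 27.9 and 29.5 FPKM against 9.24, 10.9 and 9.73 FPKM (log2 difference 1.47, SE 0.09, adjusted p = 0.00221). In all 3 genes the NPCT libraries were above the PCT libraries, as in all higher DEGs, and the calls were made in all 6 fits.

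Angptl4, an inhibitor of lipoprotein lipase (ENSRNOG00000007545, chromosome 7, 18627808 to 18634079), was at 2.45, 2.46 and 1.30 FPKM with NPCT and at 8.87, 17.4 and 16.7 FPKM with PCT (log2 difference -2.72, SE 0.33, adjusted p = 0.0114, called in all 6 fits). Hprt1, an enzyme of purine salvage (ENSRNOG00000048561, X chromosome, 158197149 to 158228749), was at 0.542, 0.951 and 0.295 FPKM against 12, 3.09 and 19.8 FPKM (log2 difference -3.83, SE 0.68, adjusted p = 0.0286), with PCT replicate 2 far below the other PCT libraries and a call in 2 of the 6 fits. Dpm3, a subunit of dolichol-phosphate mannose synthase (ENSRNOG00000029077), was at 1.26, 0.881 and 0.328 FPKM against 4.28, 7.29 and 10.2 FPKM (log2 difference -3.06, SE 0.48, adjusted p = 0.0212, called in 3 of the 6 fits). The remaining falls named by rule, among genes of at least 5 FPKM in the higher group, were short RNAs, which a library selected for poly-A measures poorly. RF00264, a small nucleolar RNA inside Rps2, was covered by 3 to 15 fragments per library, AY172581.16 is a tRNA of the mitochondrial genome with 10 to 66, and Mir2985 lies inside Gria2. Each of these was called in 1 of the 6 fits.

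Markers of other cell types were checked in the same way. Of 18 oligodendrocyte lineage, 6 endothelial and 8 choroid plexus markers 0 were called by limma, beside 2.61% higher and 0.82% lower of all genes. Limma-voom also called 0, beside 478 higher and 133 lower of all genes. An unadjusted p under 0.05 was found for 2, 1 and 1 with higher and 1, 0 and 1 with lower levels. Over all 14512 genes it was found for 4138. Olig1, a factor of oligodendrocyte precursors, was at 275, 272 and 271 FPKM with NPCT and at 195, 184 and 191 FPKM with PCT (log2 difference 0.52, adjusted p = 0.0114), and Ttr of choroid plexus had a log2 difference of -0.57 (adjusted p = 0.0341), so both missed the call on fold change. Mbp of myelin was at 12.2, 10.8 and 25.2 FPKM with NPCT and at 11.9, 11 and 14.6 FPKM with PCT, where NPCT replicate 3 was again the highest. Of 29 proliferation markers 1 was higher, beside 2.61% of all genes, while 21 had values below 0. An unadjusted p under 0.05 was found for 2 higher and 4 lower of these, beside the same 4138 genes. The gene called was Aurkb, at 14.8, 15.6 and 15.6 FPKM against 8.94, 11 and 10.2 FPKM (log2 difference 0.61, SE 0.10, adjusted p = 0.0226), and Mki67 had a log2 difference of -0.33 (adjusted p = 0.351). Of 33 genes of the unfolded protein and integrated stress responses, 7 higher and 8 lower had an unadjusted p under 0.05, beside the same 4138 genes. As DEGs 2 of the list were higher and 0 lower, beside 2.61% and 0.82% of all genes. They included Psat1 of serine synthesis at 132, 144 and 145 FPKM against 79.5, 77.9 and 85.6 FPKM (log2 difference 0.79, SE 0.07, adjusted p = 0.00562). Of 26 genes of the Bcl2 family and apoptosis Pmaip1 alone was lower and 0 were higher, beside 0.82% and 2.61% of all genes. Pmaip1 had a log2 difference of -1.10 (adjusted p = 0.0320) and was called in 2 of the 6 fits. Of 23 cholesterol genes 0 were called by limma or limma-voom, beside the same shares and counts of all genes. An unadjusted p under 0.05 was found for 4 higher and 5 lower cholesterol genes, beside the same 4138 genes.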

How the data were processed

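RNA sequencing of messenger RNA from 6 libraries, 3 per peptide, was analysed, and the vehicle libraries and the columns of the authors' own comparisons were not used. According to the submitters' processing notes, the authors used HISAT2 2.0.5, StringTie 1.3.3b and featureCounts 1.5.0-p3 with the genome build Rnor_6.0, and the library protocol does not mark strand. The deposited values are FPKM per gene and library, scaled by the authors. Values divided by the step of 1 fragment were whole within 0.01 for all genes, so fragments could be recovered, and totals were 13573056 to 17211642. Intervals of fragment ratios cover counting error only, and fragments carry no molecular identifiers.

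Deposited FPKM were divided by a size factor per library, the median ratio to the geometric mean over genes above 0 in all 6 libraries. Genes with a mean of at least 1 were kept, and log2(FPKM + 0.1) was compared by limma 3.58.1 in R 4.3.3 with Benjamini-Hochberg adjustment. Fold changes are on this scale, which understates the change of low genes. The procedure was tried on simulated counts with the same dispersion for every gene and no outlying library. That check therefore does not cover the spread between the libraries used here. The call required a fold change over 1.5 with an adjusted p no higher than 0.05. Alternatives were other pseudocounts, filters and scalings, a replicate block, library weights, limma-voom on the recovered fragments, leaving out each library, and leaving out NPCT and PCT replicate 3 together, which was chosen after seeing the data.

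Genes were named by rule: the 10 largest rises and 10 largest falls among DEGs with a plain symbol, groups that do not overlap and a mean of at least 5 FPKM in the higher group, the called member with the smallest adjusted p and the most abundant member of each of 37 gene lists, the 5 DEGs with the smallest adjusted p, the 5 steadiest DEGs when libraries were left out, the calcitonin receptor genes and defining cell markers. All other genes were named after their values were seen. The comparison, the members and the lists were chosen with earlier results of these data known, and 4 lists were added after values were seen.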

Additional observations from a re-analysis of the deposited data

How the results depend on the processing

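The 498 DEGs (379 higher and 119 lower with NPCT) became 303 (243 and 60) with a replicate block, 1217 (847 and 370) with a quality weight per library, and 1194 (795 and 399) without NPCT replicate 3 and PCT replicate 3 together. With no filter on low values there were 347 DEGs (275 higher and 72 lower), and 305 of the 498 were still called. Leaving out 1 library gave 98 to 1353 DEGs, 80 to 924 of them higher and 18 to 429 lower, and the highest numbers were those without PCT replicate 3. The other pseudocounts, the higher minimum level, the values as deposited, quantile normalization, removal of the length trend and limma-voom gave 391 to 611 DEGs. Departures from the group means of libraries with the same replicate number correlated at -0.05, 0.06 and 0.05. Those of libraries with other numbers correlated at -0.11 to 0.08. With 3 libraries per group this cannot settle whether the numbers pair the libraries, so the block is given as an alternative. Of 137 named genes, 21 lost and 1 gained a call with the block. Values that changed sign belonged to genes near 0 that were not called. With 1 library left out, the log2 difference ranged from -0.061 to 0.022 for Atp5f1b, from -0.022 to 0.061 for Rplp0, from -0.098 to 0.013 for Gapdh, from -0.022 to 0.157 for Vamp2, from -0.012 to 0.066 for Cacnb3 and from -0.11 to 0.50 for Mbp (lowest without NPCT replicate 3), and with the length trend removed Rplp0 was at -0.019. The causes were not tested. The precision is limited by 3 libraries per peptide and, for genes near the minimum level, by few fragments.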

Other observations

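Of 20 tested genes that handle iron, in a list added after values were seen, 5 were higher and 1 was lower with NPCT, beside 2.61% and 0.82% of all genes. The higher genes were the carriers and transporters Lcn2, Tf and Slc39a8, ceruloplasmin (Cp, which overlaps Hps3) and the reductase Steap4. Without NPCT replicate 3, 2 were higher (1.01% of all genes) and the median log2 difference fell from 0.38 to 0.17, and Cp, Steap4 and Slc39a8 were each called in 1 of the 6 fits that left out 1 library. The lower gene was Tfrc, the transferrin receptor, at 30.7, 31.1 and 32.7 FPKM with NPCT and at 80.1, 69.1 and 65.1 FPKM with PCT (log2 difference -1.17, limma adjusted p = 0.00419). Transferrin was thus higher and its receptor lower, and both calls were made in all 6 fits that left out 1 library. Of 41 lysosomal hydrolases and inhibitors, also chosen after values were seen, 10 were higher and 0 were lower, beside 2.61% of all genes called higher. Cst3, an inhibitor of cysteine proteases, was at 2546, 2525 and 3225 FPKM with NPCT and at 1248, 1177 and 1386 FPKM with PCT (log2 difference 1.12, limma adjusted p = 0.00959). Ctsh, a cathepsin, was at 34.6, 34.1 and 47.0 FPKM against 13.5, 16.5 and 14.3 FPKM (log2 difference 1.37, limma adjusted p = 0.00750). The summed level of the list was 4763 to 6075 FPKM with NPCT and 3042 to 3352 FPKM with PCT. Microglia markers, whose summed level was 179 to 565 FPKM with NPCT and 68.9 to 77.0 FPKM with PCT, moved in the same direction, and their part in the result was not tested. Between 3 and 13 were called when 1 library was left out, 5 without NPCT replicate 3 (1.01% of all genes) and 13 without PCT replicate 3 (6.37%).

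Genes of ribosome biogenesis, likewise listed after values were seen, were lower with NPCT in 7 of 51 and higher in 0, beside 0.82% and 2.61% of all genes, and 46 had values below 0 (median log2 difference -0.30, beside -0.02 over all genes). Npm1, nucleophosmin, was at 155, 165 and 174 FPKM with NPCT and at 269, 283 and 230 FPKM with PCT (log2 difference -0.66, limma adjusted p = 0.0196). Mak16, a factor of the large subunit, was at 6.55, 6.11 and 6.72 FPKM against 10.8, 10.6 and 10.8 FPKM (log2 difference -0.73, limma adjusted p = 0.0103). The groups did not overlap in either gene, as in all DEGs. Between 1 and 10 were called when 1 library was left out, 1 without NPCT replicate 1, NPCT replicate 2, PCT replicate 1 or PCT replicate 2 (18 to 26 of all 14512 genes lower), 3 without NPCT replicate 3 (0.317% of all genes) and 10 without PCT replicate 3 (2.96%), and 0 of the 7 calls was made in all 6 fits. Of 20 targets of p53, Pmaip1 and Eda2r were lower (log2 differences -1.10 and -1.07, limma adjusted p = 0.0320 and 0.0213), beside 0.82% of all genes called lower, and each was called in 2 of the 6 fits that left out 1 library.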
